A study of Bos taurus with 6 samples.

Results

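LPL, ACSL3, DGAT2 and SLC25A20 are 4 genes that take fatty acids from circulating fat into storage or into mitochondria. They were followed in blood cell RNA of Sanhe heifers, a dual-purpose cattle breed, before and after severe cold. The probe sets described are all those whose annotation gives a single symbol, that of one of these genes: 7 of the 12763 probe sets on the array, or 4 of 6337 named genes. LPL (gene ID 280843) and DGAT2 (404129) had 1 probe set each, SLC25A20 (518758) had 2 and ACSL3 (100138312) had 3. The genes were picked with the differences between these same arrays known, so their differences after cold are given as a description, without a test.

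The study sampled white blood cells of female heifers, semi-housed together on a mixed ration, from 3 animals drawn from 30. The cold was -32 °C outdoors for 3 hours and then 15 hours in a cowshed at 5 °C. There were 3 arrays after cold (after 1, 2 and 3) and 3 before it (before 4, 5 and 6), each a single-colour Affymetrix array labelled from 100 ng of RNA. Ages are not stated, nor is the moment of the second blood draw. Each animal gave blood at both times, but the labels do not say which arrays share an animal, so the arrays are not 6 independent animals and differences among animals add to the standard errors given. All values below are log2 intensities unless called intensities. The files name no genome build, so no positions are given.

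Fat travels in blood as triglyceride inside lipoproteins. Lipoprotein lipase splits it at the vessel wall and releases fatty acids, which cells take up. Inside the cell an acyl-CoA synthetase activates each fatty acid by joining it to coenzyme A. From there it is either esterified again to triglyceride, with a diacylglycerol acyltransferase making the last bond, or passed to carnitine and carried into the mitochondrion to be burned. Fatty acids are a main fuel for heat production in cold mammals. Blood leukocytes are not a main site of this traffic, and macrophages are the leukocytes best known for making lipoprotein lipase.

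The fit over all probe sets called none between the groups, and the arrays differed strongly along another axis. At an adjusted p of 0.05 limma called 0 of 12763 probe sets (0%), and 63 (0.494%) had an unadjusted p under 0.05. Of the variance between arrays, 68.4% lay along the first principal component. Its scores were -23.3, 52.1 and -63.2 on after 1, 2 and 3, and -1.31, -16.3 and 52.0 on before 4, 5 and 6. After 2 and before 6 had the highest scores and were the most alike of all pairs of arrays (Pearson r = 0.995 across probe sets), although they carry different labels. After 3 had the most extreme score, at the other end, and its r with the other arrays was 0.96 at most. The difference of each member probe set is therefore also given without after 2 and before 6, a choice made after the data were seen.

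LPL, which encodes lipoprotein lipase, was lower on every array after cold than on any array before it. Its intensity was 37.2, 67.6 and 60.8 on after 1, 2 and 3. On before 4, 5 and 6 it was 81.5, 166 and 88.1. After 1 was the lowest and before 5 the highest, and these arrays sat well away from the rest of their groups. On the log2 scale the mean was 5.74 ± 0.46 after cold and 6.73 ± 0.56 before it (errors of means are SDs, n = 3 per group). The difference, after minus before, was -0.99 ± 0.37 (SE of the limma fit), so the intensity before cold was 1.98 times that after. The groups were 0.27 apart at their nearest, between after 2 at 6.08 and before 4 at 6.35. Without before 5 the difference was -0.66, without after 1 it was -0.72, and without after 2 and before 6 together it was -1.29.

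ACSL3 encodes an acyl-CoA synthetase of the endoplasmic reticulum and of lipid droplets. Its mean was lower after cold in all 3 probe sets, and in each of them the groups overlapped. The intensity of Bt.17121.1.S1_at was 63.5, 108 and 39.7 on after 1, 2 and 3, and 111, 84.0 and 147 on before 4, 5 and 6. After 3 was lowest and before 6 highest, while after 2 lay inside the range before cold. This probe set averaged 6.02 ± 0.72 after and 6.79 ± 0.40 before, a difference of -0.78 ± 0.40 (SE). The log2 values of Bt.19850.2.S1_at were 5.42, 6.41 and 4.84 after cold and 6.40, 6.20 and 6.54 before, a difference of -0.82 ± 0.40. For Bt.19850.1.S1_at they were 4.85, 5.74 and 4.67 after and 5.49, 5.38 and 5.89 before, a difference of -0.50 ± 0.34. The 3 probe sets put the arrays in nearly the same order, with Pearson r between 0.96 and 0.97 over 6 arrays. A single array carried much of the mean difference: without after 3 the values were -0.42, -0.46 and -0.29 in the order given, and without after 2 they were -1.14, -1.25 and -0.83. Without after 2 and before 6 together they were -0.94, -1.17 and -0.67.

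DGAT2, one of the acyltransferases that complete triglyceride, ran the other way. Its intensity was 139, 166 and 219 on after 1, 2 and 3, against 85.0, 149 and 91.0 on before 4, 5 and 6. Before 5 was the exception: it exceeded after 1 by 0.10, and the other before arrays lay below all arrays after cold. The means were 7.42 ± 0.33 after and 6.71 ± 0.44 before, a difference of 0.71 ± 0.32 (SE), or 1.64-fold. It was 0.96 without before 5, 0.53 without after 3 and 0.63 without after 2 and before 6 together.

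SLC25A20, the carrier that exchanges acylcarnitine for carnitine across the inner mitochondrial membrane, was higher on every array after cold in both of its probe sets. The intensity of Bt.11770.1.S1_a_at was 491, 553 and 649 on after 1, 2 and 3 and 417, 416 and 387 on before 4, 5 and 6. The before arrays were close together and after 3 was the highest. Means were 9.13 ± 0.20 after and 8.67 ± 0.06 before, a difference of 0.46 ± 0.25 (SE), or 1.38-fold, with 0.24 between the nearest arrays of the groups. Bt.11770.1.S1_at gave log2 values of 7.60, 7.69 and 8.06 after and 7.55, 7.46 and 7.27 before, a difference of 0.36 ± 0.26. In it after 1 and before 4 were only 0.05 apart, and without after 3 the difference was 0.22. The probe sets ranked the 6 arrays identically (Spearman rho 1.00, Pearson r 0.95). Without after 2 and before 6 together the differences were 0.44 and 0.32.

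**Figure D1:**
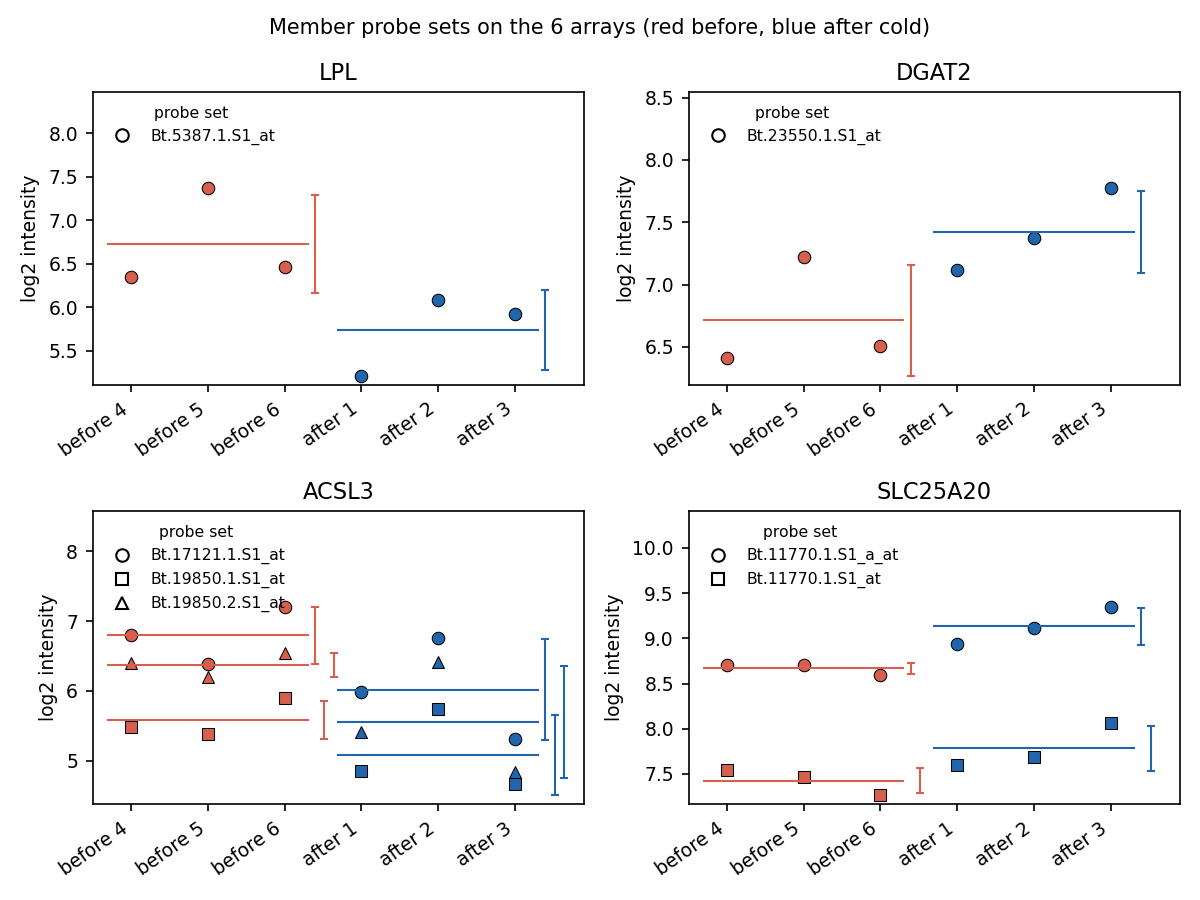
Log2 intensity of the 7 member probe sets on each of the 6 arrays (x axis), with arrays before cold in red and after cold in blue, group means as horizontal lines and error bars of 1 SD over 3 arrays. LPL after cold lies below all values before it and both SLC25A20 probe sets lie above theirs, while the groups of DGAT2 and of all 3 ACSL3 probe sets overlap.

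LPL was the only one of the 4 genes with groups apart and lower after cold, and SLC25A20 the only one with groups apart and higher. Over all probe sets, groups that did not overlap made up 2.31% in the lower and 2.07% in the higher direction. Since the members were picked on this contrast, nothing is read from that comparison. The size of the differences was 1.28-fold to 1.98-fold over the 7 probe sets, taking the larger group mean over the smaller. The members had no common direction: one step of uptake and one of activation had lower means, and one step of triglyceride synthesis and one of mitochondrial import had higher means.

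Single arrays after and before cold were also set against each other, in all 9 combinations. LPL was lower after cold in 9 of 9, from -2.16 (after 1 against before 5) to -0.27 (after 2 against before 4). SLC25A20 was higher in 9 of 9 with both probe sets, and DGAT2 in 8 of 9. The 9 of 9 of LPL and SLC25A20 restates that their groups were apart. ACSL3 was higher after cold in 1 or 2 of 9, depending on the probe set, and these cases all involved after 2.

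Of these combinations, 3 join each array after cold with the array before cold that it resembled most across all probe sets: after 1 with before 4 (Pearson r = 0.986), after 2 with before 6 (0.995) and after 3 with before 5 (0.948). The labels do not say whether these are the animals' own pairs. In this order LPL differed by -1.13, -0.38 and -1.44, and ACSL3 (Bt.17121.1.S1_at) by -0.81, -0.45 and -1.08. DGAT2 differed by 0.71, 0.87 and 0.56, and SLC25A20 (Bt.11770.1.S1_a_at) by 0.24, 0.52 and 0.64. All 7 probe sets kept 1 direction over these combinations, as did 22.7% of all probe sets in the higher and 16.3% in the lower direction. Between after 2 and before 6, the closest combination, the median absolute difference over all probe sets was 0.11. There the DGAT2 difference ranked 15 of 12763 by size, with 0.110% of probe sets differing more. SLC25A20 (Bt.11770.1.S1_a_at) was passed by 1.65%, ACSL3 (Bt.17121.1.S1_at) by 2.92% and LPL by 5.06%, while the other ACSL3 probe sets were passed by 37.7% and 45.4%. The second SLC25A20 probe set was passed by 3.67%. Between after 1 and before 4, LPL was passed by 0.337% and DGAT2 by 4.32%, the ACSL3 probe sets by 0.979% to 6.21%, and those of SLC25A20 by 42.4% and 85.5%. Between after 3 and before 5, LPL was passed by 4.61% and DGAT2 by 33.9%, the ACSL3 probe sets by 5.77% to 23.1%, and those of SLC25A20 by 27.0% and 30.5%. Among these 3 combinations, SLC25A20 ranked high by size in the closest alone. The members were picked on the contrast of these same arrays, so the directions and ranks here are a description and test nothing.

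**Figure D2:**
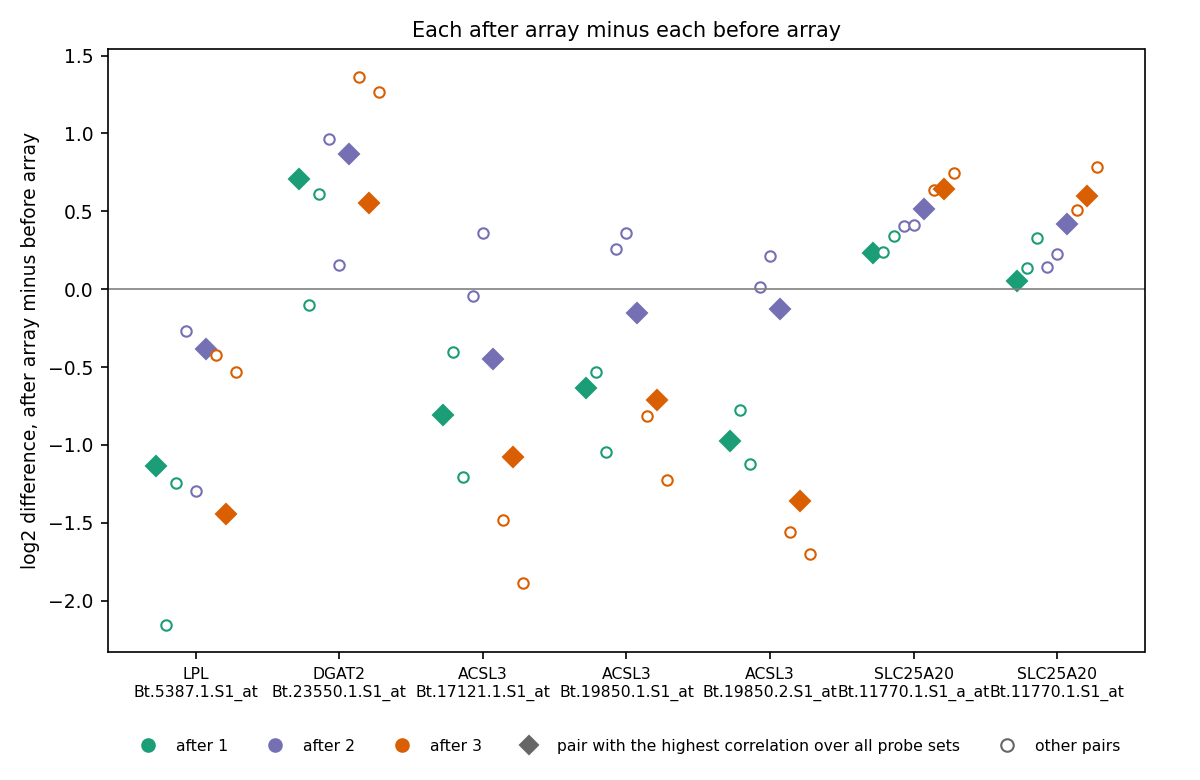
Log2 difference of each array after cold minus each array before cold (y axis) for the 7 member probe sets (x axis), coloured by the after array. Filled diamonds mark the 3 combinations with the highest correlation over all probe sets, where LPL and ACSL3 are below 0 and DGAT2 and SLC25A20 above 0; open circles mark the other 6.

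The 4 genes related differently to the main axis of difference between arrays. ACSL3 followed it in part. Its 2 lowest arrays, after 3 (5.31) and after 1 (5.99), had the lowest scores on the first component. Its highest, before 6 (7.20), had a score of 52.0. After 2, with a score of 52.1, was at 6.75, below before 6 by 0.45 and slightly below before 4 (6.80), whose score was -1.31. LPL did not follow it: its extremes, after 1 (5.22) and before 5 (7.37), had neighbouring scores of -23.3 and -16.3. DGAT2 and SLC25A20 were both highest on after 3, at 7.77 and 9.34, yet on after 2 and before 6, with almost equal scores, they differed by 0.87 and 0.52. With the component as a covariate, an alternative added after the data were seen, the LPL difference was -1.0 ± 0.37 (SE) and that of ACSL3 (Bt.17121.1.S1_at) was -0.51 ± 0.15. That of DGAT2 was 0.62 ± 0.26 and that of SLC25A20 (Bt.11770.1.S1_a_at) 0.43 ± 0.16. The component is computed from the same arrays and partly from the same contrast, so these values describe and do not test.

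**Figure D3:**
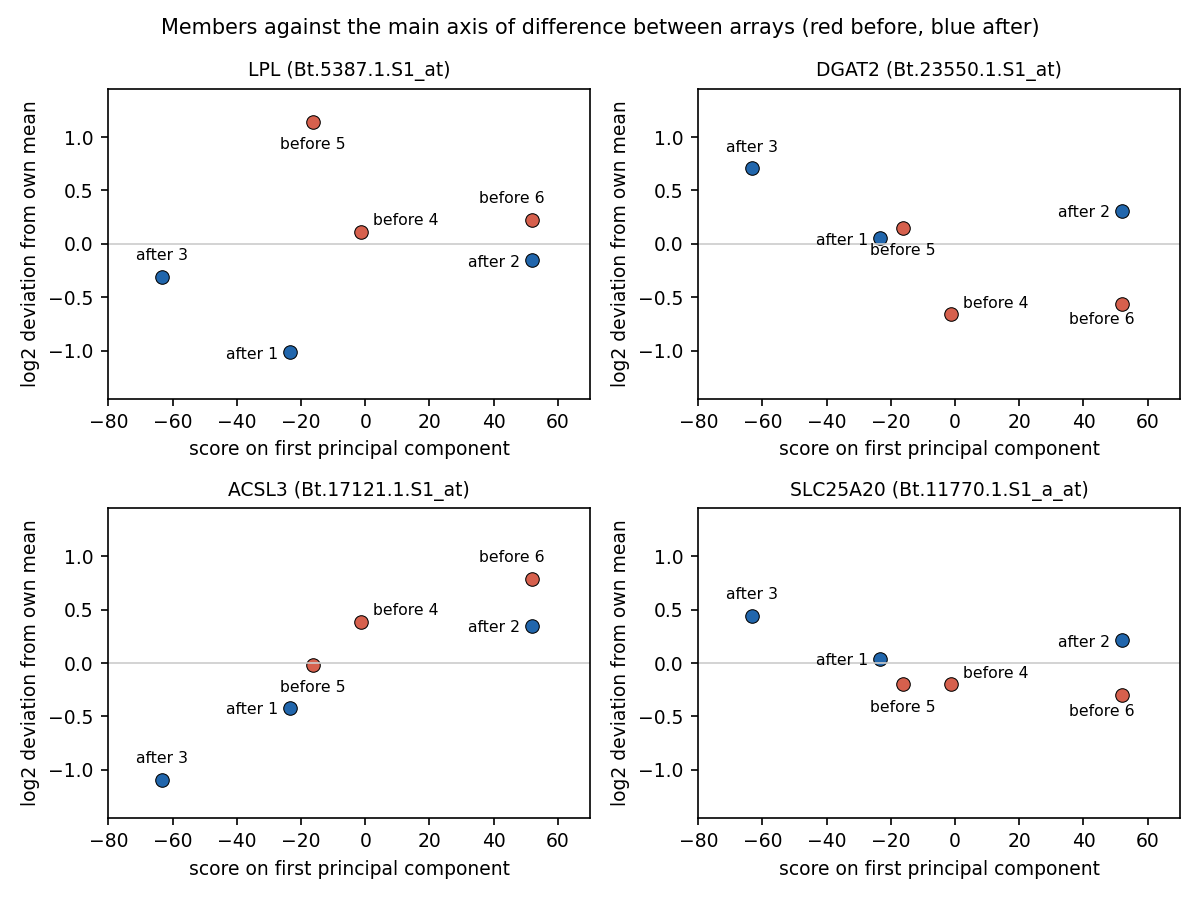
Deviation of each member from its own mean (log2, y axis) against the array's score on the first principal component of all probe sets (x axis), for the probe set of each gene with the highest mean, red before and blue after cold. ACSL3 tends upward along the axis, while LPL has its highest and lowest arrays at neighbouring scores of -16.3 and -23.3.

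The genes with the most similar profiles over the 6 arrays were listed for each member among 6333 other named genes, with Pearson r as the measure of likeness. LPL was most like CTSC, a protease of granules and lysosomes (0.97), the complement regulator CFI (0.97), CROT, a peroxisomal carnitine acyltransferase (0.96), the annexin ANXA3 (0.95) and DPYD, an enzyme of pyrimidine breakdown (0.95). CTSC differed after cold by -0.15 ± 0.24 (SE) and CFI by -0.75 ± 0.31, so likeness in profile did not mean a like size. DGAT2 was most like the choline kinase CHKB (0.97), the mannosyltransferase POMT1 (0.95), the small heat shock protein HSPB8 (0.95), the inhibitory Fc receptor FCGR2B (0.95) and the cannabinoid receptor CNR2 (0.94). ACSL3 was most like ZSCAN26, a zinc finger protein, the RNA-binding HNRNPDL, the monooxygenase FMO5, the splicing factor PRPF38A and C6H4orf3, all at 0.99. SLC25A20 was most like ELMOD3 (0.97), the stress-induced GADD45B (0.96), the GTPase RAB31 (0.96), SAP30L of a histone deacetylase complex (0.96) and the transcription factor MAFG (0.95). With 6 arrays r rests on few values, and how often it was high differed between the members. An r of at least 0.9 was reached by 479 genes with ACSL3, against 20 with LPL, 18 with DGAT2 and 34 with SLC25A20. ACSL3 is the member that in part followed the main axis of difference between arrays, and the part of that axis in its count was not tested. An r of -0.9 or lower was reached by 589, 18, 17 and 18 genes in the same order. Among the members themselves, DGAT2 and SLC25A20 had an r of 0.86, ACSL3 had -0.79 with DGAT2 and -0.76 with SLC25A20, and LPL had 0.38 with ACSL3 and -0.52 with SLC25A20.

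Around the 4 members, 8 lists of lipid handling genes were described by role, 1 probe set per gene. Of 165 listed genes 94 were measured, and limma called 0 of them in either direction at an adjusted p of 0.05, as it called 0% of all 6337 genes. At an unadjusted p under 0.05 there were 2, both lower. LPL was among them, but it was picked on this contrast and is not counted. That left 1 of the 90 list genes that are not members, against 0.537% of all genes. It was DECR1, a reductase needed to burn unsaturated fatty acids. The mean was higher after cold in 58 of the 90 list genes that are not members (64.4%), compared with 56.3% of all named genes. The median difference of the 90 was 0.10, and that of all named genes 0.05. Groups did not overlap in 3 of the 90 in the higher direction (3.33%, against 2.02% of all genes) and in 5 in the lower (5.56%, against 3.00%). The 3 were GPAT3, AGPAT4 and ACLY, and the 5 were LIPA, TMLHE, DECR1, ETFA and PPARG.

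Uptake and lipolysis had 6 measured genes, 2 with a higher mean. LMF1, a chaperone that lipoprotein lipase needs to fold, was at 0.37 ± 0.37 (SE), opposite in sign to LPL. Its log2 values were 8.05, 7.03 and 8.01 after cold and 7.75, 7.38 and 6.85 before, so the groups overlapped. The fatty acid-binding FABP3 was at -0.21 ± 0.32. The partners GPIHBP1, ANGPTL4 and APOC2 were not analysed here.

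Fatty acid activation had 7 of 13 genes with a higher mean and a median of 0.01. The relatives of ACSL3 did not share its size: ACSL1 was at 0.01 ± 0.35, ACSL5 at -0.13 ± 0.24 and ACSL6 at 0.20 ± 0.30, each with overlapping groups. ACSL4 was not analysed here. Of the thioesterases, which undo the activation, ACOT13 was at -0.66 ± 0.40 and ACOT9 at -0.27 ± 0.28.

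Triglyceride synthesis had 8 of 10 genes with a higher mean and a median of 0.16, or 0.13 over the 9 genes without DGAT2. GPAT3, which starts the pathway on glycerol phosphate, was at 5.65, 6.37 and 5.80 on after 1, 2 and 3 and at 5.29, 5.64 and 5.51 on before 4, 5 and 6, a difference of 0.46 ± 0.29 (SE). AGPAT4, of the next step, was at 0.38 ± 0.27. The groups of both were apart, in GPAT3 by a narrow margin between after 1 and before 5. DGAT1, which makes the same bond as DGAT2 but is an unrelated protein, was at 0.24 ± 0.34, with 7.94, 7.18 and 7.88 after cold and 7.91, 7.37 and 7.00 before.

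Lipid droplet and lipolysis genes had 5 of 8 with a higher mean (median 0.07). LIPA, the acid lipase of lysosomes, was lower on each array after cold, at 8.96, 9.28 and 8.83 against 9.68, 9.49 and 9.50, a difference of -0.54 ± 0.25 (SE). RAB18, a GTPase found on lipid droplets, was at -0.54 ± 0.35.

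In the carnitine shuttle 5 of 7 genes had a higher mean (median 0.18). CPT2, which hands the acyl group back to coenzyme A inside the mitochondrion after SLC25A20 has carried it in, was at 0.18 ± 0.29 (SE). CRAT was at 0.27 ± 0.32, ALDH9A1 of carnitine synthesis at 0.27 ± 0.27, and the peroxisomal CROT at -0.39 ± 0.30. The outer membrane enzymes CPT1A and CPT1B were not analysed here.

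Beta oxidation, the pathway that SLC25A20 feeds, had 12 of 19 genes with a higher mean and a median of 0.15, and its largest differences were negative. DECR1 was at 5.93, 6.36 and 5.51 on after 1, 2 and 3 and at 6.43, 6.94 and 6.56 on before 4, 5 and 6, a difference of -0.71 ± 0.31 (SE), and the groups were apart. ETFA, which passes electrons from the first oxidation step, was at -0.62 ± 0.34. After 3 was the lowest array for both. Fatty acid synthesis had 8 of 12 genes with a higher mean (median 0.10), with ACLY, the source of cytosolic acetyl-CoA, at 0.22 ± 0.25 and MLYCD, which removes malonyl-CoA, at 0.32 ± 0.39.

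Of the regulators 13 of 19 had a higher mean (median 0.08). PPARG, a nuclear receptor that drives LPL in fat cells, was at 4.55, 4.59 and 3.94 after cold and 4.61, 4.88 and 4.69 before, a difference of -0.37 ± 0.28 (SE) with groups barely apart. PPARD was at 0.10 ± 0.32 and PRKAA1, a catalytic subunit of the energy sensor AMPK, at -0.58 ± 0.43. PPARA was not analysed here.

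**Figure D4:**
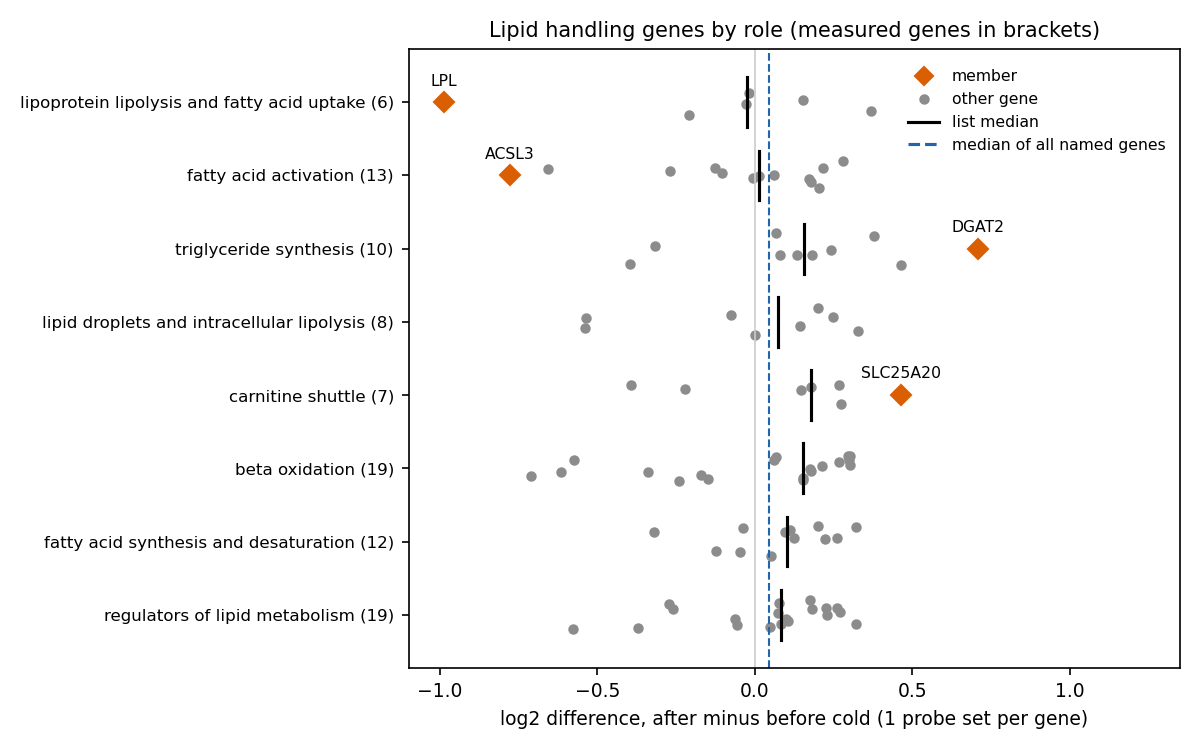
Log2 difference after minus before cold (x axis) of the 94 measured lipid handling genes, 1 probe set per gene, by role (y axis, measured genes in brackets), with orange diamonds for the 4 members, black bars for list medians and a dashed line at the median of all named genes, 0.05. List medians lie between -0.02 and 0.18. Each of the 4 members has the largest difference of its list in its own direction, but they were picked on this contrast, so nothing is read from that.

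Levels in a mixture of leukocytes cannot separate fewer cells of a type from less RNA per cell, so marker genes of blood cells were set beside the members. Of the listed T cell markers 13 of 14 had a probe set, of B cell markers 5 of 10 and of NK and cytotoxic markers 9 of 10. Some were bright: after cold CD3D averaged 11.69, MS4A1 11.37 and GNLY 10.77, against array medians of 7.25 to 7.49. Also bright were the platelet marker PF4 at 12.53 and the red cell marker HBB at 12.06. Of the red cell markers 4 of 13 were measured, and all 4 averaged higher after cold (median 0.11, against 0.05 for all named genes). The part of platelet and red cell RNA in the member differences was not tested. Other markers, such as CD28 at 5.16 and KLRB1 at 5.13, were dim. Without detection calls the presence of the dim ones in the labelled white blood cells could not be judged. Summed intensities of 9 marker lists overlapped between the groups in every list, and no marker value was 0. DGAT2 ran beside the sum of the neutrophil markers, 7 of 12 of which were measured. This sum of linear intensities rests mainly on S100A8, S100A12 and S100A9, with log2 means of 13.29, 12.89 and 11.64 after cold. The next brightest was NCF1 at 9.81. Over all 7 the sum was 21213, 19907 and 26603 on after 1, 2 and 3 and 17429, 26441 and 18289 on before 4, 5 and 6. Before 5, the array that broke the DGAT2 groups, was thus the second highest in neutrophil marker sum, and before 4 and before 6 were lowest in both measures. Between after 2 and before 6, where DGAT2 differed by 0.87, 6 of the 7 neutrophil markers were also higher on after 2, with a median difference of 0.12. The chemokine receptor CXCR1 differed by 0.71 and the decoy receptor IL1R2 by 0.38, while the others lay between -0.06 (FCGR3A) and 0.15 (NCF1). Between the groups, 6 of the 7 averaged higher after cold and the median difference was 0.18. The exception, FCGR3A, had the largest difference of the list, -0.61 ± 0.36 (SE). It was lowest on after 3 (7.72), where DGAT2 was highest. In IL1R2, at 0.41 ± 0.24, the groups were apart, but its lowest array was before 5 (5.02). The part of neutrophil content in the DGAT2 difference was not tested. SLC25A20 did not follow the marker sum on before 5, where it was at 8.70.

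LPL was highest on before 5, the array with the highest monocyte and macrophage marker sum, where 6 of 12 listed markers were measured. The sum was 2610, 2289 and 2959 on after 1, 2 and 3 and 2479, 3438 and 2202 on before 4, 5 and 6. The other arrays did not line up: after 1 had the lowest LPL with the third highest sum, and before 6 the second highest LPL with the lowest sum. Of the 6 markers 4 had a lower mean after cold, as LPL did. The median difference of all 6 was -0.24, against 0.05 for all named genes. CSF1R was at -0.22 ± 0.42 (SE), CD68 at -0.26 ± 0.41 and TLR2 at -0.30 ± 0.39, while CD14 was at 0.20 ± 0.32 and SIRPA at 0.06 ± 0.29. The scavenger receptor MSR1, made by macrophages, was at -0.66 ± 0.28 with groups apart. It was dim, averaging 4.26 after and 4.92 before cold, where the dimmest 25% of probe sets lay below 6.16. Its presence could therefore not be judged either. Platelet markers, 2 of 10 measured, also peaked on before 5, with a sum of 10324 against 7583 to 8311 on the other arrays. Of 10 fat cell markers 3 were measured, LIPE, CFD and PPARG, and ADIPOQ, LEP and PLIN1 were not analysed here. Their sum was 3055 to 6729 after and 3388 to 6416 before cold. It rests mainly on CFD, with a log2 mean of 12.19 after cold, against 7.40 for LIPE and 4.36 for PPARG. The part of these cell types in the LPL difference was not tested.

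**Figure D5:**
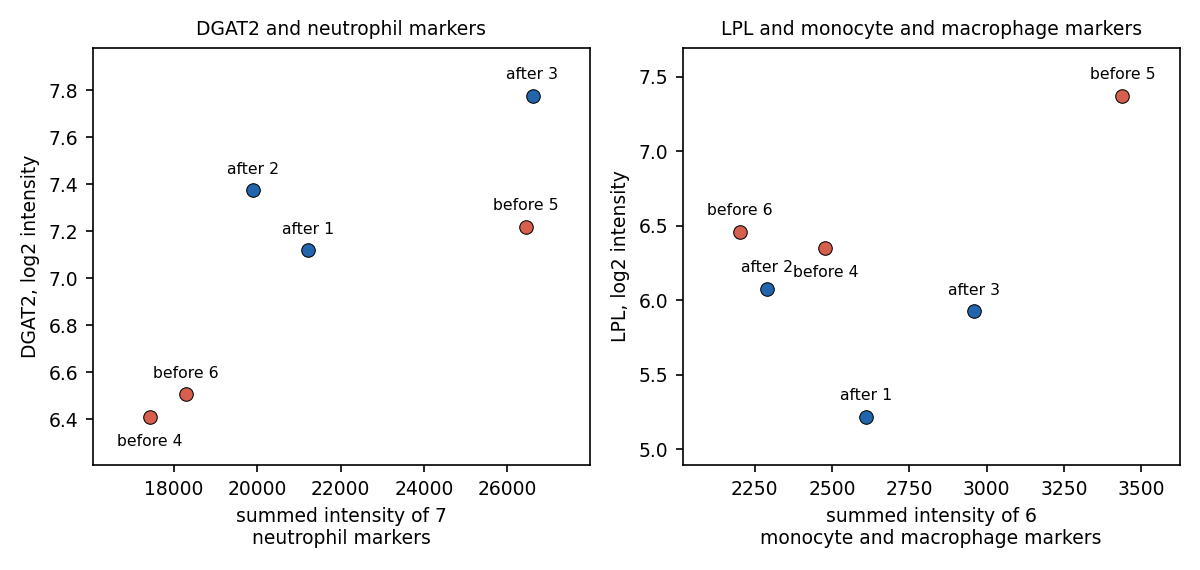
Left, DGAT2 log2 intensity (y axis) against the summed intensity of 7 neutrophil markers (x axis) on the 6 arrays, and right, LPL against the sum of 6 monocyte and macrophage markers, red before and blue after cold. Before 5 is high on both axes in both panels, while after 1 has the lowest LPL at a middling marker sum.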

How the data were processed

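The authors deposited 1 table of linear probe set intensities, with 1 column per array. GCOS and RMA are named, without versions, per the submitters' processing notes; RMA corrects background, aligns arrays and summarises probes. Any filter on probe sets is not stated, and detection calls were not used here, so a dim value cannot be told from background. No further normalization or pseudocount was used before taking log2. Of the 12763 probe sets 8125 carried a single gene symbol in the platform annotation, 56 several and 4582 none. Of the 8125, 8109 matched the RefSeq gene table by gene ID, and 0 symbols changed. Except for members, a gene is its probe set with the highest mean over the 6 arrays.

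Groups were compared with limma 3.58.1 in R 4.3.3, without a block, two-sided, with Benjamini-Hochberg adjustment over all probe sets; its SE is used throughout, and the script was tested on simulated data. The 3 arrays per group limit the precision, and an exact permutation test of 3 against 3 cannot go below 0.1. The members, lists and alternatives were chosen with earlier results of these data known. Named list genes are the 2 non-members with the smallest p in each list, 16 partners and relatives of the members, and the 5 genes most like each member. Other genes were named after their values were seen: TMLHE and the markers CD14, CSF1R, MSR1, CD68, TLR2, SIRPA, CXCR1, IL1R2, FCGR3A, NCF1, S100A8, S100A9, S100A12, CD3D, CD28, MS4A1, GNLY, KLRB1, PF4, HBB, LIPE and CFD. Promoter motifs of the members, planned at first, were not analysed here.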

Additional observations from a re-analysis of the deposited data

How the results depend on the processing

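With limma, 0 probe sets and 0 of the lipid list genes passed an adjusted p of 0.05 under each alternative run except the unadjusted threshold, which gave 63 and 2. Filters on dim probe sets, an intensity trend, a robust form, array weights, 3 normalizations, each array left out, each of 6 matchings as a replicate block and the set without after 2 and before 6 were run. The count at an unadjusted p was 5 (without after 3) to 1787 (without after 2) on leaving out each array, 662 with array weights, and 24 to 1168 over the matchings, or 0 to 10 for the list genes. The labels give the groups no shared replicate numbers. The matching 1-4, 2-6, 3-5 joins the most similar arrays and gave the 10. They were the 4 members and 6 of the other 90 genes (6.67%), compared with 8.43% of all genes. Since the members were picked on this contrast, nothing is read from their part in the 10. Over the 6 matchings the SE was 0.23 to 0.47 for LPL and 0.16 to 0.42 for DGAT2, and the matching of the most similar arrays gave the smallest.

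All 7 member differences kept their sign in each of their alternatives. Array weights moved LPL to -0.47 and DGAT2 to 1.12. They gave after 1, the array with the lowest LPL, a weight of 0.0019. Before 4, the array with the lowest DGAT2, had a weight of 30.7, and the other arrays had 1.20 to 3.62. The estimate of the weights stopped before it converged. Leaving out each array gave -1.18 to -0.66 for LPL and 0.53 to 0.96 for DGAT2, and the 3 normalizations -0.95 to -0.90 and 0.74 to 0.76. Of the 5 genes most like a member, Spearman rho kept 1 for DGAT2 and 1 for ACSL3, and median centring kept 3 for DGAT2 and 3 for SLC25A20. Without the dimmest 50% of probe sets only the 2 of SLC25A20 were left, so LPL, DGAT2 and ACSL3 rest on dimmer signal.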
